A study of Homo sapiens with 8 samples.

Results

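MHC class I molecules show peptides from inside the cell to CD8+ T cells, and the genes described here make and load those peptides. They are B2M, TAP1, TAP2, TAPBP, PSMB8, PSMB9, PSMB10, HLA-E, HLA-F and PSME2, and a probe set was taken as a member where 1 of these symbols was its only annotated symbol. The rule found 17 probe sets for 9 of the 10 genes, out of 22215 probe sets and 11963 genes on the array. The only PSME2 probe set also carries a microRNA symbol, so PSME2, a subunit of the proteasome activator PA28, is given no value. The remaining 9 genes were read on each of 8 Affymetrix HG-U133A arrays, a platform that reports 1 hybridisation intensity per probe set.

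The study compared cancer cells before and after CD24, a small cell-surface glycoprotein, was bound by an antibody or lowered by shRNA. HT29, an established colorectal cancer line, and Colo357, an established pancreatic cancer line, were each grown with the anti-CD24 monoclonal antibody SWA11, diluted 1 to 40, for 72 h, and each was also profiled untreated. The clones all derive from HT29. A clone with 1 vector expressing an shRNA against CD24 and 2 clones with 2 such vectors are set against a clone with a vector expressing an shRNA against GFP, and against untreated HT29, also called parental HT29. There was 1 array for each of 6 groups and 2 arrays, of 2 clones, for the group with 2 vectors. Each clone is a single clone, so what is particular to a clone and what follows from its vector cannot be told apart. Antibody-treated cells are set against untreated cells, since a control antibody was not analysed here.

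The proteasome cuts cytosolic proteins into peptides. In the immunoproteasome the catalytic subunits PSMB8, PSMB9 and PSMB10 take the places of PSMB5, PSMB6 and PSMB7 of the constitutive core. TAP1 and TAP2 form the transporter that brings peptides into the endoplasmic reticulum, and TAPBP (tapasin) bridges that transporter to empty class I molecules. B2M is the invariant light chain of every class I molecule, while HLA-E and HLA-F are nonclassical heavy chains. HLA-E presents mainly leader peptides of other class I chains to receptors of natural killer cells. Many of these genes are known to respond to interferons through promoter elements bound by IRF and STAT factors.

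The interferon-stimulated response element (ISRE) is the promoter sequence through which IRF factors act, and its letters are shown because they are what most of these genes share in sequence. RefSeq promoter windows of the GRCh38.p14 assembly, 250 bases before to 50 bases after an annotated start, were at hand for 8 of the 9 genes, in 10 windows. HLA-E had no window. Its core, GAAA and GAAA again with any 2 bases between them, was searched on both strands. It was found for 7 of these 8 genes, and in 3.6% of all 34796 windows. A gene with 2 windows counted if either held it. The runs below are written 5′ to 3′ on the gene's strand, with the core in capitals; TTTC letters mark a core on the opposite strand.
TAP2 (chr6:32838763-32838822, - strand): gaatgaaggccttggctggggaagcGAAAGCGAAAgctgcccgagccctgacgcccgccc
TAPBP (chr6:33314069-33314128, - strand): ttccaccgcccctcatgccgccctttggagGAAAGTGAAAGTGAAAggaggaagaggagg
PSMB8 (chr6:32844038-32844097, - strand): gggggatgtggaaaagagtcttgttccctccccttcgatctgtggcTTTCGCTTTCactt
PSMB10 (chr16:67936841-67936900, - strand): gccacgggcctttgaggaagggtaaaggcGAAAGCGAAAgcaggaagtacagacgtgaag
B2M (chr15:44711351-44711410, + strand): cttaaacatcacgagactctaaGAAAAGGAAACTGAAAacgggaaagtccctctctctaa
HLA-F (chr6:29723253-29723312, + strand): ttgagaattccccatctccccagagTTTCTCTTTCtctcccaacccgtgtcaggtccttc

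TAPBP and B2M each held 2 overlapping cores, and the PSMB10 and TAPBP cores lay within 21 bases before the start. The PSMB8 core, in the window of its second annotated start, ran across that start, from base -4 to base 5, counting the annotated start as base 0. TAP1 and PSMB9 are neighbours transcribed away from each other, with starts 488 bases apart, so their promoter windows are printed as the 250 bases before each start.
TAP1 (chr6:32853705-32853954, - strand): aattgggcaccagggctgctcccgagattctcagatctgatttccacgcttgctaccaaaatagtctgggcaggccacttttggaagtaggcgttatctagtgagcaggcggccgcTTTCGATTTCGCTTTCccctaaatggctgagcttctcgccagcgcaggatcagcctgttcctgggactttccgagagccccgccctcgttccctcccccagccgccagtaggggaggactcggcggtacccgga
PSMB9 (chr6:32853942-32854191, + strand): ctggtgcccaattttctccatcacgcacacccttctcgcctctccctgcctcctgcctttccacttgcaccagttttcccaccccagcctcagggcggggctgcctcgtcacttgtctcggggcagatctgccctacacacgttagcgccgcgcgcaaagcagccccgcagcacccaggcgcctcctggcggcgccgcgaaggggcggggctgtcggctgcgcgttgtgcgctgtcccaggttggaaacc

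TAP1 held 2 overlapping cores at -134 to -119. PSMB9 held none within its own window, which says only that these letters are not in these 300 bases. The STAT-type element TTCNNNGAA was found for TAP1 and PSMB8, and in 7.7% of all windows. The kappa B sequence GGACTTTCC was found for B2M and TAP1, and in 0.4% of all windows; the B2M match lay at -125 to -117 and the TAP1 match at -71 to -63. CCAAT, the box bound by NF-Y, was found for 4 of the 8 genes and in 34.6% of all windows. A match is a description of letters and not a measured site.

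**Figure D1:**
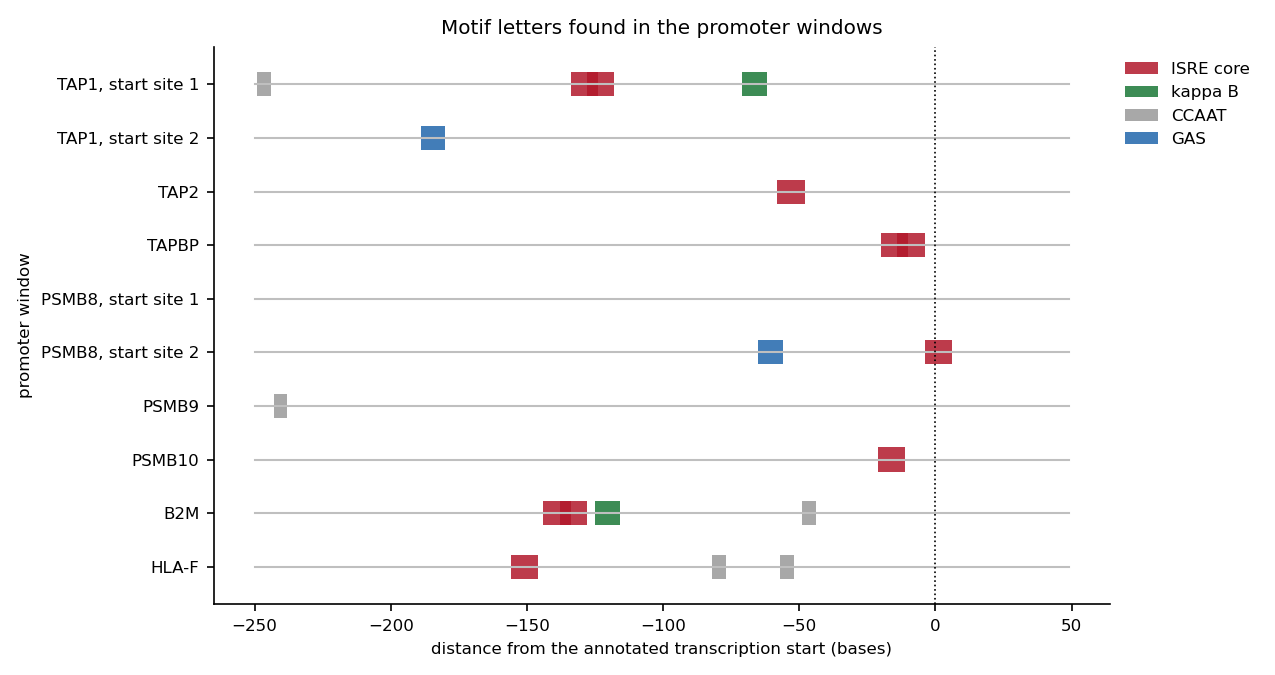
Positions of the 4 searched motifs in the 10 promoter windows, as distance in bases from the annotated start (dotted line at 0); each bar is a match on either strand and overlapping bars are overlapping matches. ISRE cores stand in 7 of the 10 windows, and none stands in the second TAP1 window, the first PSMB8 window or the PSMB9 window.

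CD24 itself checked the labels. Its brightest probe set read 558.0 with 1 CD24 vector and 171.7 and 595.5 with 2 vectors, against 7362.5 in the GFP shRNA clone and 6425.1 in parental HT29. The line labels were set against marker genes as well. The intestinal lectin LGALS4 read 139.6 in untreated Colo357 against 4581.5 in untreated HT29, but villin (VIL1) read 1123.5 against 439.3 and the mucin MUC13 1081.1 against 180.4. In HT29 the intestinal markers CDX1, CDX2 and CDH17 read 6.5, 3.2 and 6.6, below the 25th percentile of all values (10.1). Of the 8 intestinal markers 5 thus read higher in untreated Colo357 than in untreated HT29. The duct keratin KRT7 read 5468.1 in untreated Colo357 against 38.8 in untreated HT29, and mesothelin (MSLN) 602.7 against 35.1, while PDX1 read 14.6 in Colo357. Of the 7 duct markers 5 read higher in untreated Colo357 and 2, SOX9 and CFTR, read lower. The array of the first 2-vector clone stood apart, where the 3′ over the 5′ signal of ACTB was 1.77, while the other 7 arrays had 1.06 to 1.17, and where the 18S 3′ control read 434.8, while the others read 14.7 to 48.0. For the comparison of 2 vectors with 1 vector, values are given for each 2-vector clone alone. In such bulk RNA, fewer cells of a type and less RNA per cell cannot be told apart.

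Over the 8 arrays the 9 genes differed in how far they varied. Differences are in log2(intensity + 10), which understates those of dim genes, and each gene stands for its brightest probe set. PSMB9 ranged over 5.62 on this scale and TAP1 over 4.03, while TAP2 ranged over 1.16 and PSMB10 over 1.48. Antibody-treated Colo357 was the highest array for 5 genes (TAP1, PSMB9, B2M, HLA-E and HLA-F), and untreated HT29 was the lowest for 4 (TAP1, PSMB8, HLA-E and HLA-F). As a description over 8 arrays that share lines, 7 genes followed the mean of the others with Pearson r of 0.61 to 0.89. PSMB10 (0.11) and TAPBP (-0.17) did not.

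**Figure D2:**
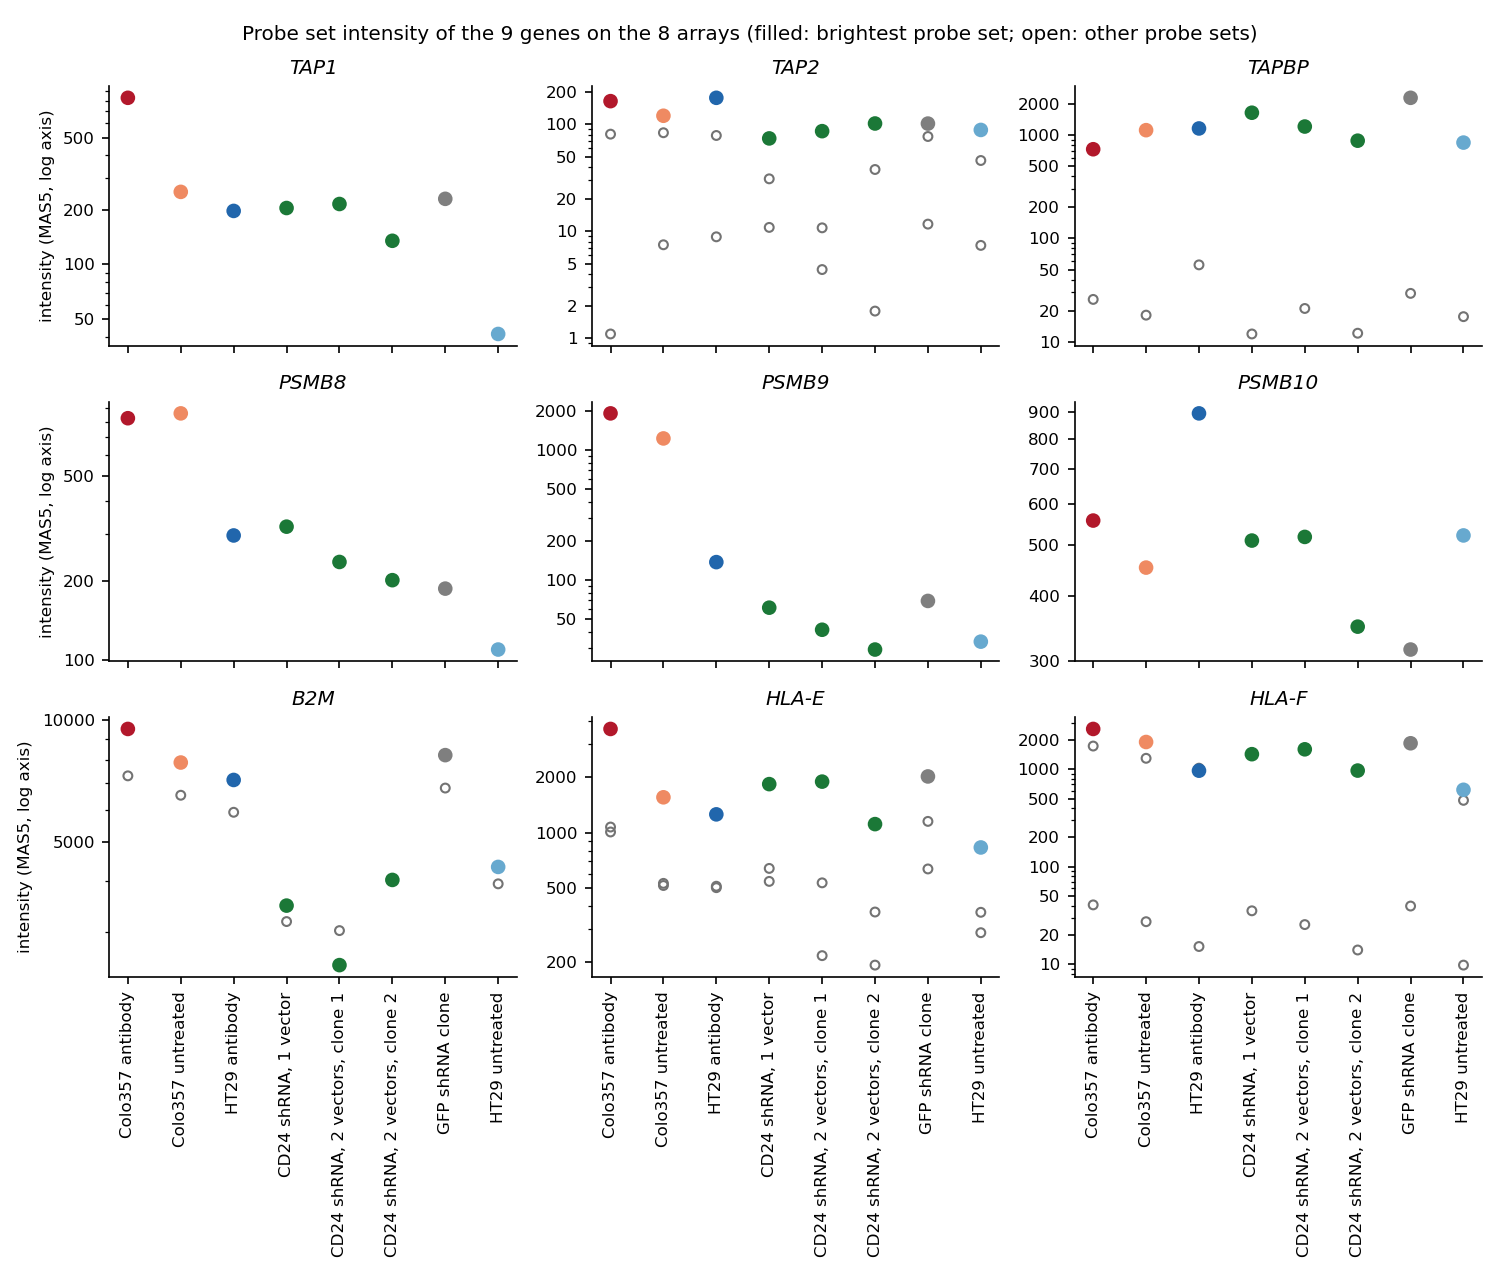
MAS5 intensity on a log axis of the 9 genes on the 8 arrays; filled points are the brightest probe set, coloured by group, and open points are the other probe sets of that gene. TAP1 read 41.4 in untreated HT29 and 135.0 or more on the other 7 arrays, and PSMB9 read 1232.1 and 1920.3 in Colo357 and 137.8 or less in HT29 and its clones.

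The first question was what 72 h with the anti-CD24 antibody did to the class I loading genes. TAP1 rose over both lines, and 7 of the 9 genes read higher with antibody in both lines, against 32.1% of all 6784 genes tested. In HT29 all 9 genes read higher, with TAP1, PSMB9 and PSMB8 at 2-fold or more. In Colo357 TAP1 and HLA-E were at 2-fold or more, while PSMB8 and TAPBP read lower. Over both lines 1 of 9 genes passed limma upward and 0 downward, against 1.14% and 2.42% of all genes.

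For the transporter, TAP1 read 197.2 in antibody-treated HT29 against 41.4 in untreated HT29, a ratio of 4.76. Colo357 read 828.1 with antibody against 251.1 untreated, a ratio of 3.3. The log2 difference over both lines was 1.85 ± 0.33 (SE, n = 2 lines; limma adjusted p = 0.0267). The 2 treated arrays overlapped the untreated ones, because untreated Colo357 stood above treated HT29, so the difference shows within lines. That SE is limma's, with 10.2 degrees of freedom of which 1 is residual, and so it rests mostly on the spread of all genes. TAP1 lost the call with adjusted p = 0.814 without the line block, 0.176 in a fit of all 8 arrays, 0.181 without the filter on low values and 0.0992 after quantile normalization.

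TAP2, the partner of TAP1, read 177.3 and 165.0 in antibody-treated HT29 and Colo357, against 88.8 and 120.5 untreated. Both treated arrays lay above both untreated ones, yet the difference of 0.67 ± 0.33 (SE, n = 2 lines) did not pass (limma adjusted p = 0.253). The second TAP2 probe set read 78.8 and 81.1 with antibody and 46.0 and 83.6 untreated, so it did not repeat the Colo357 difference. TAPBP read 1159.4 with antibody in HT29 against 846.2, and 729.7 with antibody in Colo357 against 1116.0. Its log2 differences thus had opposite signs, 0.45 in HT29 and -0.61 in Colo357, with -0.08 ± 0.36 over both (limma adjusted p = 0.92). A dimmer TAPBP probe set read 55.5 and 25.7 with antibody and 17.5 and 18.1 untreated, which turned the mean over probe sets to 0.36.

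Among the immunoproteasome subunits, PSMB9 read 137.8 in antibody-treated HT29 against 33.7 untreated, a ratio of 4.09, and 1920.3 in antibody-treated Colo357 against 1232.1, a ratio of 1.56. Its difference of 1.20 ± 0.37 missed the threshold (limma adjusted p = 0.092) and passed when each probe set was tested by itself (adjusted p = 0.0345). PSMB8 read 297.0 with antibody in HT29 against 109.8, and 825.9 with antibody in Colo357 against 861.5. The difference was thus present in HT29 (1.36) and near 0 in Colo357 (-0.06), where untreated cells held the highest PSMB8 reading of the 8 arrays. PSMB10 read 896.1 and 558.2 with antibody against 522.7 and 453.5 untreated. It lay higher on both treated arrays, by 0.77 in HT29 and 0.29 in Colo357, and did not pass (limma adjusted p = 0.361).

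The constitutive counterparts gave the background for these subunits. PSMB5, PSMB6 and PSMB7 differed by 0.09, 0.14 and 0.15 in HT29 with antibody, and by 0.58, 0.47 and 0.33 in Colo357. In HT29 each immunoproteasome subunit therefore differed by more than its counterpart, and in Colo357 only PSMB9 did. The difference between the subunits of a pair was not tested. Over the whole constitutive 20S core, 13 of 14 genes had a value, 0 of 13 passed limma in either direction over both lines, and their median difference was 0.08.

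**Figure D3:**
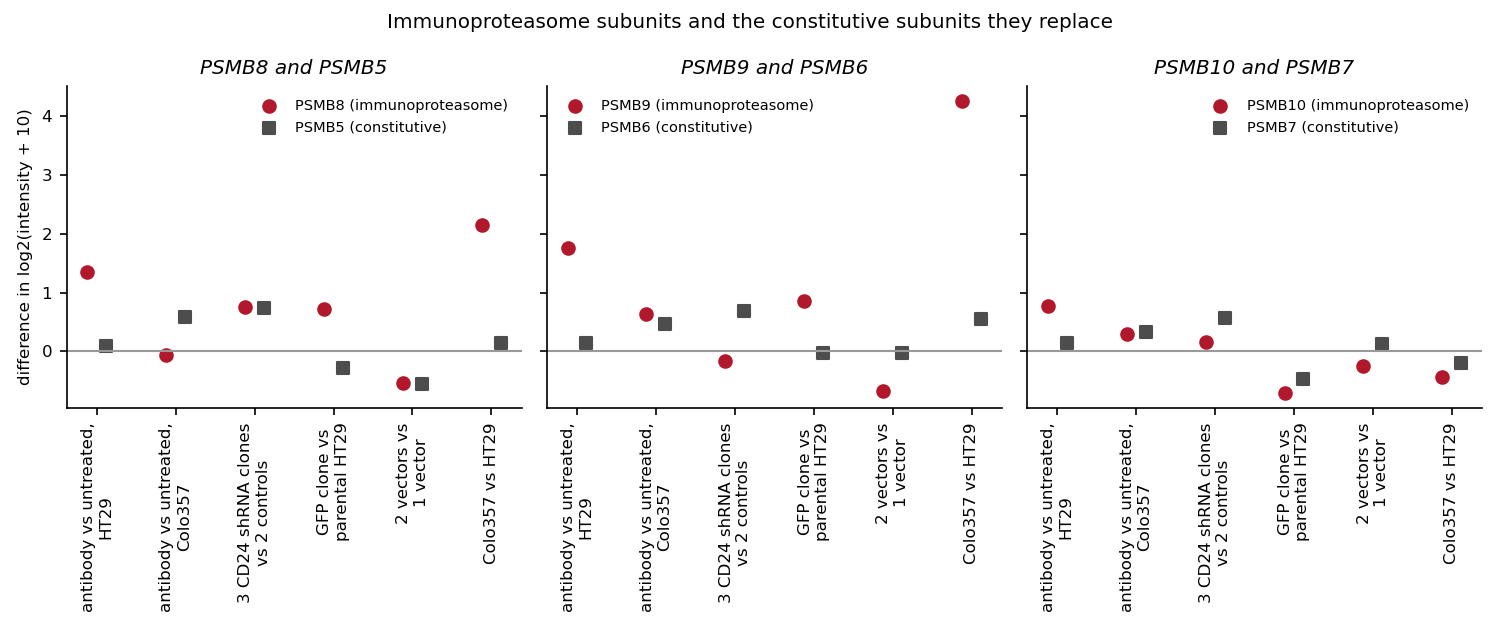
Difference in log2(intensity + 10) of each immunoproteasome subunit (red circles) and the constitutive subunit it replaces (grey squares) in 6 comparisons, each named with the group on top of the difference first; no error is drawn. With antibody in HT29 the red points stand at 1.36, 1.76 and 0.77 and the grey ones at 0.09 to 0.15, and PSMB9 stands at 4.27 for Colo357 against HT29.

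For the class I chains, HLA-E read 1255.2 and 3637.7 in antibody-treated HT29 and Colo357 against 831.0 and 1552.5 untreated. The ratios were 1.51 in HT29 and 2.34 in Colo357, and the difference of 0.91 ± 0.34 did not pass (limma adjusted p = 0.145). All 3 HLA-E probe sets read higher with antibody in both lines, by 0.46 to 0.79 in HT29 and by 0.95 to 1.22 in Colo357. HLA-F read 964.0 and 2581.7 with antibody against 614.0 and 1896.9, a difference of 0.54 ± 0.32 (limma adjusted p = 0.34). B2M read 7125.3 and 9525.7 with antibody against 4343.3 and 7868.4, a difference of 0.49 ± 0.33 (limma adjusted p = 0.392). These 3 genes, like TAP1, overlapped between treated and untreated arrays because the lines start from different levels.

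Within each line, 3 of 9 genes in HT29 were at 2-fold or more upward and 0 downward, against 5.04% and 7.43% of 6685 genes. In Colo357 the counts were 2 upward and 0 downward, against 10.6% and 12.8% of 6836 genes. The median over the 9 genes was 0.77 in HT29 and 0.42 in Colo357, beside -0.05 and -0.04 over all genes. Over both lines it was 0.65 beside -0.02, and 3 of the 9 had an unadjusted limma p under 0.05. None of the 9 passed for the difference between the lines in the fit of all 8 arrays, with an SE of 1.22 for each. That fit gives each of the 7 groups its own mean. Its 1 residual degree of freedom is the difference between the 2 clones with 2 vectors, pooled over all genes. It therefore cannot judge these differences against repeats of the antibody or line arrays. The summed intensity of the 9 immune cell markers with a value was 218.7 and 687.8 in antibody-treated HT29 and Colo357, against 153.4 and 443.8 untreated. With antibody 7 of the 9 read higher and 2 lower in HT29, and 5 higher and 4 lower in Colo357. Of all 11963 genes, without the filter, 5911 read higher in HT29 and 6124 in Colo357. In each line only 1 of the 9 markers was above the filter, so these counts are mostly of dim readings. Most of the Colo357 sum is LCP1, an actin-bundling protein gene, at 597.4 with antibody against 364.4; the other 8 markers summed to 90.4 against 79.4. The part of these markers in the result was not tested.

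Among the other genes of the pathway 2 were called with the antibody, both lower. HLA-G, HLA-C and HLA-B, the 3 measured of 4 other class I chains, differed by 0.53, 0.50 and 0.42, and 0 of 3 passed. Of 9 tested genes of peptide trimming and loading, 0 rose and 1 fell: TPP2, a cytosolic peptidase, at -1.80 ± 0.32 (limma adjusted p = 0.0272). TPP2 read 73.0 and 68.9 with antibody in HT29 and Colo357 against 278.6 and 264.0 untreated, without overlap. Of 8 tested genes of class I transcription, 0 rose and 1 fell: IRF2, which binds ISRE letters and is known both as a repressor of interferon genes and as an activator of class I genes. It read 16.2 and 64.9 with antibody in HT29 and Colo357 against 102.8 and 346.0, a difference of -2.18 ± 0.32 (limma adjusted p = 0.0165). IRF1, an activator of the same elements, differed by 0.57 (limma adjusted p = 0.315). Both calls ended without the line block (adjusted p = 0.802 for each), in the fit of all 8 arrays (0.2 for TPP2 and 0.0753 for IRF2), without the filter (0.181 for each) and after quantile normalization (0.108 and 0.0966). TPP2 also missed the threshold with the mean of probe sets (0.0661).

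Among interferon receptors and signalling genes 0 of 7 tested passed. IRF9, the DNA-binding subunit of the factor ISGF3, had the largest difference of them, with 225.3 and 333.4 in antibody-treated HT29 and Colo357 against 76.4 and 166.2 untreated (1.20 ± 0.33; limma adjusted p = 0.0694). The interferon genes looked at here, IFNG and IFNB1, were dim, reading at most 18.4 and 9.6 on the 8 arrays. Other interferon genes were not looked at. Of 3 tested class II presentation genes 0 passed. Of 5 other proteasome regulators 0 passed, with PSME4, which encodes the activator PA200, lowest at -1.35 ± 0.33 (limma adjusted p = 0.0521). The median difference was -0.25 over the peptide trimming and loading list and -0.26 over the transcription list, beside 0.65 over the 9 members.

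**Figure D4:**
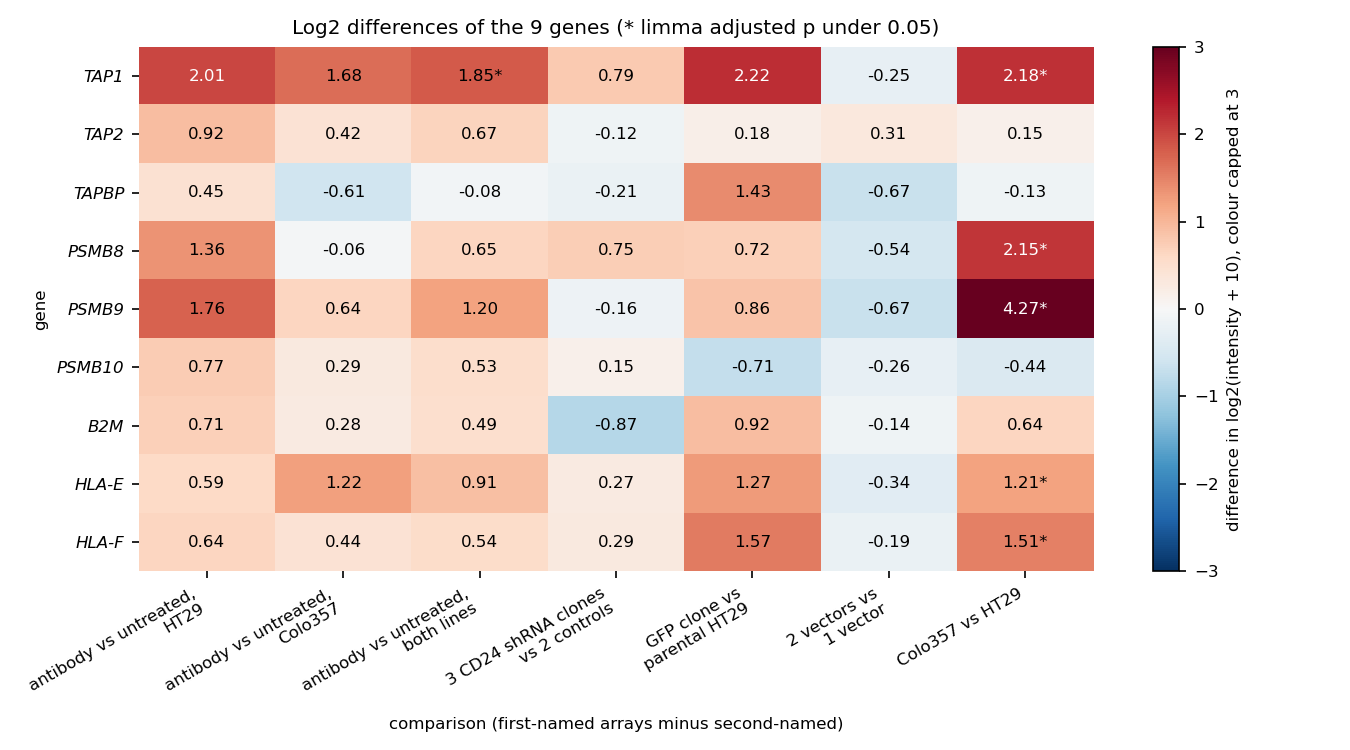
Difference in log2(intensity + 10) of the 9 genes (rows) in 7 comparisons (columns), printed in each cell and coloured from blue (lower in the first-named arrays) to red (higher); an asterisk marks limma adjusted p under 0.05. TAP1 is marked over both lines (1.85), 5 genes are marked for Colo357 against HT29, and no cell is marked for the CD24 shRNA clones.

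The second question was whether the same genes differed in HT29 clones with CD24 shRNA. None of the 9 passed limma, 0 had an unadjusted p under 0.05, and the rate over all 6752 genes was 0.0%, though 1352 genes had an unadjusted p under 0.05. Without the second 2-vector clone 9 genes passed upward and 584 downward, and without the GFP clone 75 and 13, with 0 of the 9 members among them either time. PSMB8 read higher in all 3 clones than in both controls and B2M read lower in all 3. All 3 clones lay above both controls for 20.1% of all genes and below both for 19.9%, so 1 of 9 in each direction is not above the background. The median of the 9 genes was 0.15, beside 0.04 over all genes.

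PSMB8 read 320.7 with 1 CD24 vector and 235.7 and 201.1 with 2 vectors, against 186.8 in the GFP clone and 109.8 in parental HT29. The difference was 0.75 ± 0.41 (SE, n = 3 clones and 2 controls; limma adjusted p = 0.327). Its counterpart PSMB5 differed by as much, 0.74 ± 0.39. B2M read 3485.0 with 1 CD24 vector and 2483.8 and 4033.5 with 2 vectors, against 8206.7 in the GFP clone and 4343.3 in parental HT29. The difference was -0.87 ± 0.43 (limma adjusted p = 0.295), and -0.67 without the first 2-vector clone, which read lowest. It was -1.32 against the GFP clone alone and -0.41 against parental HT29 alone, so its size rests on the GFP clone. On the second B2M probe set the second 2-vector clone (4040.4) stood above parental HT29 (3944.7), and the groups overlapped.

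TAP1 showed how far the choice of control matters. It read 204.6 with 1 CD24 vector and 215.3 and 135.0 with 2 vectors, against 229.9 in the GFP clone and 41.4 in parental HT29. The clones were therefore close to the GFP clone and the parental array stood alone. The difference of 0.79 ± 0.63 did not pass (limma adjusted p = 0.48), was 1.90 against parental HT29 alone and turned to -0.33 against the GFP clone alone. HLA-F read 1423.2 with 1 CD24 vector and 1596.6 and 966.4 with 2 vectors, against 1841.0 in the GFP clone and 614.0 in parental HT29. Its difference of 0.29 likewise turned, to -0.50 against the GFP clone alone.

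TAPBP read 1645.9 with 1 CD24 vector and 1210.1 and 882.8 with 2 vectors, against 2295.1 in the GFP clone and 846.2 in parental HT29. All 3 clones lay between the controls, and the difference was -0.21. PSMB9 read 61.5 with 1 CD24 vector and 41.6 and 29.3 with 2 vectors, against 69.3 in the GFP clone and 33.7 in parental HT29 (-0.16). PSMB10 (349.4 to 519.3 in the clones, against 315.8 and 522.7) lay within the range of its controls, and TAP2 (74.0 to 102.0 in the clones, against 101.8 and 88.8) reached past both of them. Their differences were 0.15 and -0.12, and neither passed (limma adjusted p = 0.844 and 0.863).

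HLA-E depended on the probe set. Its brightest one, an _x_at probe set, a suffix that marks probes matching more than 1 sequence, read 1829.5 with 1 CD24 vector and 1887.3 and 1111.6 with 2 vectors, against 2013.1 in the GFP clone and 831.0 in parental HT29. The probe set without that suffix read 640.1 with 1 CD24 vector and 215.9 and 191.9 with 2 vectors, against 1150.0 in the GFP clone and 370.5 in parental HT29. The differences were 0.27 ± 0.49 for the brightest and -1.10 ± 0.67 for the other (tested over probe sets, limma adjusted p = 0.38). Both 2-vector clones thus read below parental HT29 on 1 HLA-E probe set and above it on the other 2. With the antibody the 3 probe sets had the same sign in each line.

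**Figure D5:**
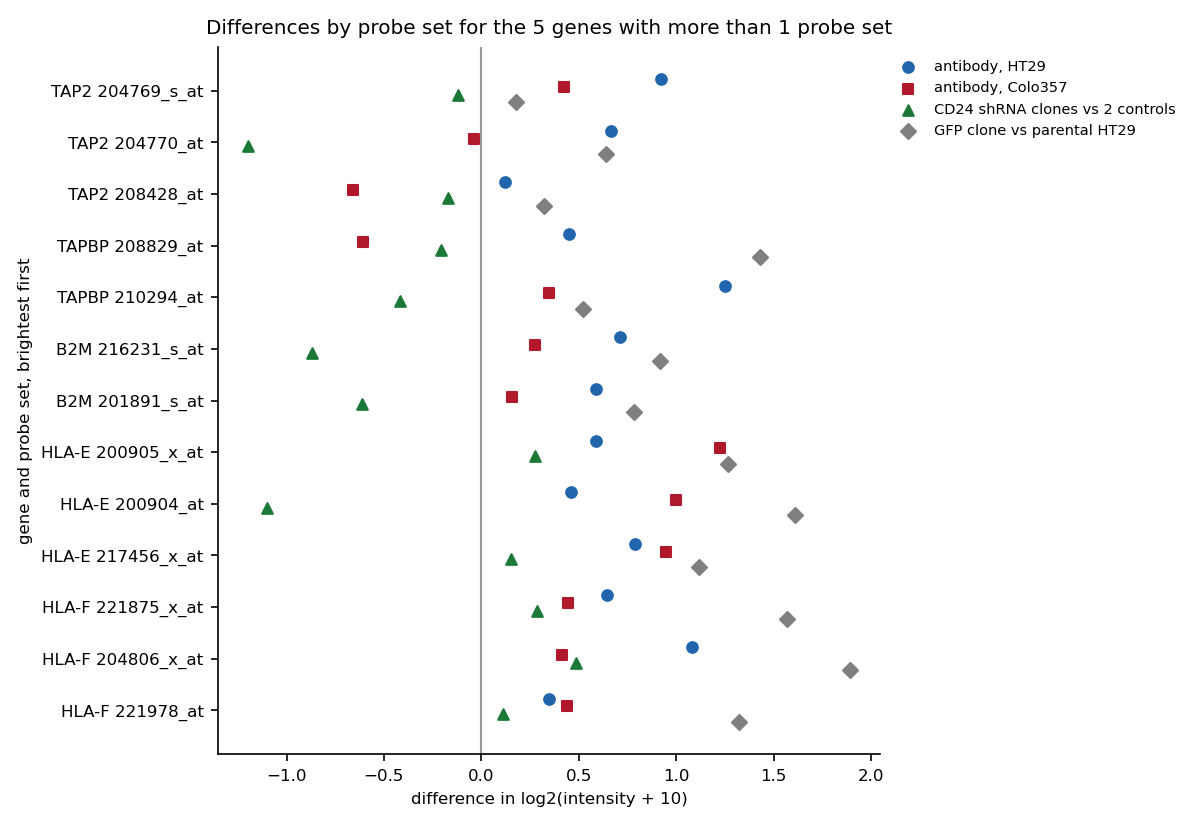
Difference in log2(intensity + 10) for each probe set of the 5 genes with more than 1 probe set, in 4 comparisons (colours and markers); no error is drawn. The HLA-E probe set without the _x_at suffix stands at -1.10 for the CD24 shRNA clones where the 2 _x_at probe sets stand at 0.27 and 0.15, while the 3 agree in sign for the other comparisons.

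The GFP shRNA clone, which keeps CD24, gave the distance of a clone from its line, with 1 array on each side and no test. Of 8 genes above the filter, 4 were at 2-fold or more above parental HT29 and 0 below, against 14.5% and 7.11% of 6696 genes. TAP1 differed by 2.22, HLA-F by 1.57, TAPBP by 1.43 and HLA-E by 1.27. B2M (0.92), PSMB8 (0.72) and TAP2 (0.18) also read higher, and PSMB10 (-0.71) read lower. PSMB9, at 69.3 in the clone against 33.7 in parental HT29, was below the filter and was not counted. The median of the 8 genes was 1.09, beside 0.08 over all genes.

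The classical chains read higher as well: HLA-B read 4458.6 in the GFP clone against 1262.9 in parental HT29, and HLA-C read 6192.9 against 2024.9. IRF9 read 838.7 in the GFP clone against 76.4, and the class II chaperone gene HLA-DMA read 340.8 against 50.6. In the constitutive core, by contrast, 1 of 13 genes read higher and the median was -0.52. The intestinal markers differed too, with a summed intensity over 8 genes of 790.2 in the GFP clone against 5319.1 in parental HT29, and 142.7 to 1098.2 in the CD24 shRNA clones. Most of the sum in the GFP clone and parental HT29 is LGALS4, at 584.5 against 4581.5. Of the 8 markers 4 were above the filter, and 0 of these read higher in the GFP clone. CDX1 and CDX2, at 6.9 and 3.9 in the GFP clone against 6.5 and 3.2, were dim and did not read lower. The part of the intestinal markers in the result was not tested. All 4 clones, the GFP clone among them, read above parental HT29 for 5 of the 9 genes (TAP1, TAPBP, PSMB8, HLA-E and HLA-F), against 30.3% of genes. That count is of brightest probe sets. On the HLA-E probe set without the _x_at suffix both 2-vector clones read below parental HT29. On the dimmer TAPBP probe set the 1-vector clone (11.9) and the second 2-vector clone (12.1) read below it (17.5). Untreated HT29 is the common comparator of the clone differences and of the antibody difference in HT29, so these are not separate observations.

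With 2 vectors against 1 vector, 0 of the 9 genes passed limma, against 0.295% of 6780 genes, and 8 of 9 read lower on average in the 2-vector clones, against 46.5% of all genes. TAPBP and PSMB9 each differed by -0.67 and PSMB8 by -0.54, with both 2-vector clones below the 1-vector clone for all 3. TAP2 differed by 0.31, with both above. The fit gave every gene an SE of 0.72, adjusted p was 1 for each of the 9, and their median was -0.26, beside 0.04 over all genes. These averages differed by clone. Against the 1-vector clone, the first 2-vector clone, whose array stood apart, read lower for 4 of 9 genes with a median of 0.02, and the second for 7 of 9 with a median of -0.57, beside 48.5% and 49.9% of all genes. In the second clone alone TAP1 differed by -0.57, PSMB10 by -0.54, HLA-E by -0.71 and HLA-F by -0.55, where the averages were -0.25, -0.26, -0.34 and -0.19. In the first clone alone these 4 genes differed by 0.07, 0.02, 0.04 and 0.17. B2M differed by -0.49 in the first clone and 0.21 in the second. With 1 array on each side these values have no test. The lone 1-vector array was assumed to vary like the others. IRF9 read 122.0 and 105.8 in the 2-vector clones against 459.5 in the 1-vector clone (limma adjusted p = 0.817).

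The third question was how the lines differ, taken over treated and untreated arrays with the antibody as a block. Each line has 1 treated and 1 untreated array, which are not replicates. The fit has 10.2 degrees of freedom of which 1 is residual, so SE and p rest mostly on the spread of all genes. PSMB9, TAP1, PSMB8, HLA-F and HLA-E were higher in Colo357 than in HT29, and the other 4 genes did not pass. That is 5 of 9 upward and 0 downward, against 10.9% and 8.56% of 6784 genes. The median was 1.21, beside -0.03 over all genes.

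PSMB9 had the largest difference of the 9 genes, with 1920.3 and 1232.1 in Colo357 against 137.8 and 33.7 in HT29. The lines did not overlap, and the difference was 4.27 ± 0.37 (SE, n = 2 arrays of each line; limma adjusted p = 1.8e-05). TAP1, its neighbour, read 828.1 and 251.1 in Colo357 against 197.2 and 41.4 in HT29, a difference of 2.18 ± 0.33 (SE; limma adjusted p = 0.000898). PSMB8, which lies in the same gene cluster with TAP2, differed by 2.15 ± 0.39 (limma adjusted p = 0.00321). TAP2 differed by 0.15, with 165.0 and 120.5 in Colo357 against 177.3 and 88.8 in HT29, and overlapped between the lines. Of these 4 neighbouring genes 3 passed and TAP2 did not.

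HLA-F differed by 1.51 ± 0.32 (limma adjusted p = 0.00834) and HLA-E by 1.21 ± 0.34 (limma adjusted p = 0.0299). Both rest on _x_at probe sets. HLA-E differed by 0.78 on its probe set without that suffix, with limma adjusted p = 0.132 when _x_at probe sets were left out. Its other _x_at probe set differed by 0.91 (adjusted p = 0.0572 when each probe set was tested by itself). The only HLA-F probe set without the suffix was below the filter and not tested, so without _x_at probe sets the count of 5 became 3. B2M (0.64), TAPBP (-0.13) and PSMB10 (-0.44) did not pass (limma adjusted p = 0.206, 0.841 and 0.394). Untreated arrays alone gave 4.83 for PSMB9, 2.34 for TAP1, 2.86 for PSMB8 and 1.61 for HLA-F, but 0.89 for HLA-E, which is under 2-fold. For the uncalled genes they gave 0.86 for B2M, 0.40 for TAP2 and -0.20 for PSMB10, and TAPBP turned to 0.40. With 1 array on each side these values have no test.

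Outside the members, HLA-B (1.64 ± 0.33; limma adjusted p = 0.00615) and HLA-C (1.31 ± 0.32; 0.0174) were higher in Colo357. All 11 probe sets of HLA-B, HLA-C and HLA-G are _x_at ones, so these chains are not read separately from each other or from other class I genes here or in the comparisons above. HLA-C missed the threshold without the filter (0.0513). ERAP1, an aminopeptidase that trims peptides in the endoplasmic reticulum, read 228.0 and 423.8 in Colo357 against 56.1 and 43.4 in HT29 (2.44 ± 0.37; limma adjusted p = 0.00102). IRF2 differed by 1.59 (limma adjusted p = 0.00641) and the interferon receptor chain IFNAR2 by 1.14 (limma adjusted p = 0.0441). IFNAR2 lost the call with the mean of probe sets (0.143), without the filter (0.104) and after quantile normalization (0.0909). It also missed the threshold with a pseudocount, the constant added before the log, of 1 (0.0544). Without _x_at probe sets IFNAR2 was below the filter and not tested, with a difference of 0.26 and overlap between the lines. Of 11 class II genes with a value only 3 were above the filter, and these 3 were higher: HLA-DMB (1.88), HLA-DMA (1.39) and CTSS (1.24). CTSS read 94.2 and 85.7 in Colo357 against 20.2 and 49.2 in HT29, and was below the filter on the HT29 arrays alone. It thus entered the test through the line where it is high, so the count of 3 is no support. HLA-DMA and CTSS lost the call without the filter (limma adjusted p = 0.0967 and 0.0961) and after quantile normalization (0.0893 and 0.117). CTSS also lost it with a pseudocount of 50 (0.0929) and was not tested with the mean of probe sets. In the constitutive core 0 of 13 genes passed, with a median of -0.38.

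The immune cell markers summed to 687.8 and 443.8 in Colo357 against 218.7 and 153.4 in HT29, and 1 of the 9 was above the filter. That gene, LCP1, read 597.4 and 364.4 in Colo357 against 21.9 and 17.0 in HT29. The other 8 summed to 90.4 and 79.4 in Colo357 against 196.8 and 136.4 in HT29. PTPRC, which encodes the pan-leukocyte protein CD45, read 11.7 and 9.3 in Colo357 against 24.2 and 0.8 in HT29. The part of these markers in the line difference was not tested.

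The 8 genes outside the members whose log2 profile over the 8 arrays was most like the members' mean, of 6773 ranked, were BMP1 (Pearson r = 0.977), CFD (0.975), IL10RB (0.964), F3 (0.958), ALDOC (0.952), NXPH4 (0.948), HSPA2 (0.945) and GALK1 (0.944). They are the top of a ranking over 8 points that share 2 lines, and carry no p. BMP1, a procollagen proteinase, read 122.3 in antibody-treated HT29 against 51.0 untreated, and 243.8 in antibody-treated Colo357 against 139.3. IL10RB, a receptor chain shared by interleukin-10 and interferon lambda, read 195.9 in antibody-treated HT29 against 88.4, and 405.4 in antibody-treated Colo357 against 285.6.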

How the data were processed

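Total RNA of 8 samples was measured on Affymetrix HG-U133A arrays, per the labels' protocols. The authors deposited linear intensities of probe sets. The submitters' processing notes name MAS5 (version not given in the sources used here). Detection calls were not used. The mean after trimming 2% at each end was 250.1 on every array, so no scaling was added. Precision is limited by the number of arrays.

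Symbols came from the platform annotation, updated by Entrez ID: 19064 of 22215 non-control probe sets had 1 symbol, 1043 several and 2108 none. Values were turned into log2(intensity + 10). A gene was its brightest single-symbol probe set, and a comparison tested genes whose mean exceeded the median over non-control probe sets. Tests were two-sided limma fits (version 3.58.1, R 4.3.3; lmFit and eBayes) with Benjamini-Hochberg adjustment over all genes tested, called at adjusted p under 0.05. Comparisons of 1 array with 1 array have no test, so members and genes past 2-fold were counted instead. The fits were also run on simulated data in which every gene had the same spread and was drawn independently. That run cannot say how the fits behave on these arrays, where the spread differs by gene. The labels do not say whether arrays came from separate cultures, so p-values do not reach beyond these samples. Residual degrees of freedom were 3 of 8.0 in the CD24 shRNA comparison and 1 of 10.2 in the antibody and line comparisons. They were 1 of 6780 for 2 vectors against 1 vector, so p-values rest mostly on the spread pooled over genes. In the fit of all 8 arrays the 1 residual degree of freedom is the difference between the 2 clones with 2 vectors.

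The members and gene lists were chosen with earlier results of these data known. All members are named, with up to 3 genes per list and comparison, those with the largest absolute difference, CD24, the marker genes, and the 8 genes most like the members' mean. The other members of lists whose values are printed (PSMB5, PSMB6, PSMB7, IRF1, IFNG, IFNB1, PTPRC) were chosen for their roles, with values seen. Promoter windows are RefSeq's (GRCh38.p14). The kappa B sequence was shortened to 9 letters after its matches had been seen; a longer form was searched first, with matches for the same genes. Alternatives covered the pseudocount, filter, normalization, probe set choice, line block, the fit of all 8 arrays and each array left out.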

Additional observations from a re-analysis of the deposited data

Results flagged for a closer look

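TAPBP had opposite signs in the lines after antibody treatment, 0.45 in HT29 and -0.61 in Colo357, a difference between lines of 1.06 on the log2 scale. In the fit of all 8 arrays the SE of that difference was 1.22; limma gave adjusted p = 1. PSMB8 likewise had 1.36 in HT29 and -0.06 in Colo357, a difference between lines of 1.42 (limma adjusted p = 1). Neither difference passed.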

How the results depend on the processing

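The count of 1 gene called over both lines with antibody was 0 without the line block, in the fit of all 8 arrays, without the filter and after quantile normalization, and 2 when each probe set was tested by itself. Over all genes that fit called 77 upward and 164 downward, 0 and 0 in 3 of those settings, 15 and 12 in the fit of all 8 arrays, 32 and 36 with the mean of probe sets, and 385 and 757 of 11107 probe sets. In the CD24 shRNA comparison 0 genes became 114 upward and 599 downward in the fit of all 8 arrays, 9 and 584 without the second 2-vector clone, 75 and 13 without the GFP clone, and 2 and 0 without the 1-vector clone. Without _x_at probe sets the count at 2-fold with antibody in Colo357 was 1 in place of 2, and the count for Colo357 against HT29 was 3 in place of 5. HLA-E in that line comparison had adjusted p = 0.0773 without the filter, 0.0626 with the mean of probe sets and 0.132 without _x_at probe sets. Signs turned for values that passed no test. TAPBP over both lines with antibody was 0.36 with the mean of probe sets. In the CD24 shRNA comparison, PSMB9 was 0.04 and TAPBP 0.02 without the second 2-vector clone. HLA-E was -0.36, HLA-F -0.50 and TAP1 -0.33 without parental HT29, where PSMB9 was -0.59 and TAPBP -0.92. PSMB10 was -0.20, PSMB9 0.27 and TAPBP 0.51 without the GFP clone, where HLA-E was 0.91, HLA-F 1.07 and TAP1 1.90. After quantile normalization PSMB9 was 0.27 and TAP2 0.31. HLA-E was -0.23 with the mean of probe sets and -1.10 without _x_at probe sets. Leaving out each array in turn gave 0 to 0 called members there, and the lone control left was assumed to vary like the others. Quantile normalization moved the median of all genes in the CD24 shRNA comparison to 0.18. Of 567 values for single genes over all settings, 531 kept their direction and side of the threshold or moved by less than the spread. That count was partly fixed in advance and does not measure how stable the values are. Settings that change only the filter or the error model leave the difference itself unchanged. An uncalled value that kept its sign was counted as kept however far it moved. Leaving out a 2-vector clone in the comparison with 1 vector left no residual degrees of freedom, so only values exist there. The antibody fit matches treated and untreated arrays by line through its block, and the values without that block are given above. The labels carry no replicate numbers that groups share, so no other matching was made.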
